A study of Saccharomyces cerevisiae with 6 samples.

Results

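This account follows 36 budding yeast genes of mitosis, cytokinesis and daughter-cell identity in strains that lack the glucose receptor Gpr1 or its G protein Gpa2. The genes were fixed by name, and each was read on its brightest probe set that names only that gene, by the mean normalised log2 value. A probe set is a group of short oligonucleotides on the array that together report 1 transcript. All 36 have such a probe set, out of 5656 genes that do. Of these, 34 were bright enough to be tested, and MYO1 and KIP1 were not. The arrays were single-colour and measured total RNA of 3 groups in the W303-1a background, a common laboratory strain. The groups were 2 arrays of a gpr1 deletion, 2 of a gpa2 deletion and 2 of wild type. No other allele or treatment is labelled. One gpa2 array, number 2, is labelled as coming from a 2nd experiment. Growth medium, culture stage and synchrony were not given in the sources used here. Nor do the labels say whether the arrays of a group were separate cultures. The p-values therefore reflect only how these arrays vary, which may be technical.

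Late in the cell cycle, B-type cyclins drive the kinase Cdc28 into mitosis, and a forkhead and Mcm1 programme transcribes many mitotic genes together. The mitotic exit network then releases the phosphatase Cdc14, an actomyosin ring closes the bud neck, and a septum of chitin is laid down. Enzymes made in the daughter then digest the septum, so that mother and daughter part. Gpr1 and Gpa2 act upstream of protein kinase A, which couples glucose to growth and to cell size at division. W303 strains are known to carry a defective BUD4 allele, so their bud site choice is not that of every yeast strain.

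The labels were first checked on the deleted genes. For GPR1 the deposited intensities were 5.1 and 2.8 on gpr1 arrays, against 490.7 and 634.9 on the gpa2 arrays and 1086.4 and 1013.9 in wild type. GPA2 read 9.3 and 10.9 on gpa2 arrays, against 1619.3 and 1029.2 on gpr1 arrays and 2410.3 and 1900.3 on wild-type arrays. Each deleted gene was thus near background in its own strain alone. The mating type a genes STE2 (1433.4 to 4662.7) and MFA2 (8685.7 to 14438.5) were bright on all arrays, and the alpha gene STE3 read 60.6 to 115.4. Array brightness was uneven. The median deposited intensity was 525.9 and 265.4 on the gpr1 arrays, 225.1 and 237.6 on the gpa2 arrays, and 562.9 and 373.6 in wild type. Values below are therefore on the log2 scale after quantile normalisation, which gives all arrays 1 distribution. On wild-type array 2 the 3' control probe set of SPT15 read 10.3 times its 5' one, a measure of RNA integrity, and on the other 5 arrays 3.16 to 4.83 times. The same ratio for ACT1 was 1.29 on that array and 1.26 to 1.54 on the others.

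None of the 34 tested members passed the test in the gpr1 deletion, in the gpa2 deletion or between the deletions (limma, Benjamini-Hochberg adjusted p under 0.05 over all 6956 tested probe sets). Over all probe sets the share that passed was 0.23% with gpr1 deleted and 0.776% with gpa2 deleted, against wild type, and 0.0288% between the deletions, and a count of 0 among 34 members is close to those shares. At an unadjusted p under 0.05, CLB1 and SCW11 were higher in each deletion, and 0 members were lower. Of all probe sets, 3.62% with gpr1 deleted and 6.1% with gpa2 deleted were higher at that level, and 3.02% and 5.35% were lower. Between the deletions 1 member, AMN1, was higher in the gpr1 deletion at that level (1.08% of all probe sets) and 0 were lower (1.27%). With both deletions in 1 group 0 members passed after adjustment (0.791% of all), and ASH1, CLB1 and SCW11 were higher at an unadjusted p under 0.05 (3 of 34, against 5.97% of all higher and 5.13% lower). With 1 array left out some of these p-values rose above 0.05 (limma moderated test across all probe sets). This held in the gpr1 deletion without gpr1 array 1, where the change was 0.73 for CLB1 and 0.62 for SCW11. It also held for SCW11 in the gpa2 deletion without gpa2 array 2, where its change was 0.48. For ASH1 over both deletions the p of 0.0316 became 0.0391 without wild-type array 2 and 0.0664 to 0.123 without any other single array, and 0.117 with median centring. Median centring gave SCW11 an unadjusted p of 0.0634 in the gpa2 deletion and 0.0367 in the gpr1 deletion (limma). The nearest to a call was the mitotic cyclin gene CLB1, whose adjusted p changed with the fit, as given below.

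**Figure D1:**
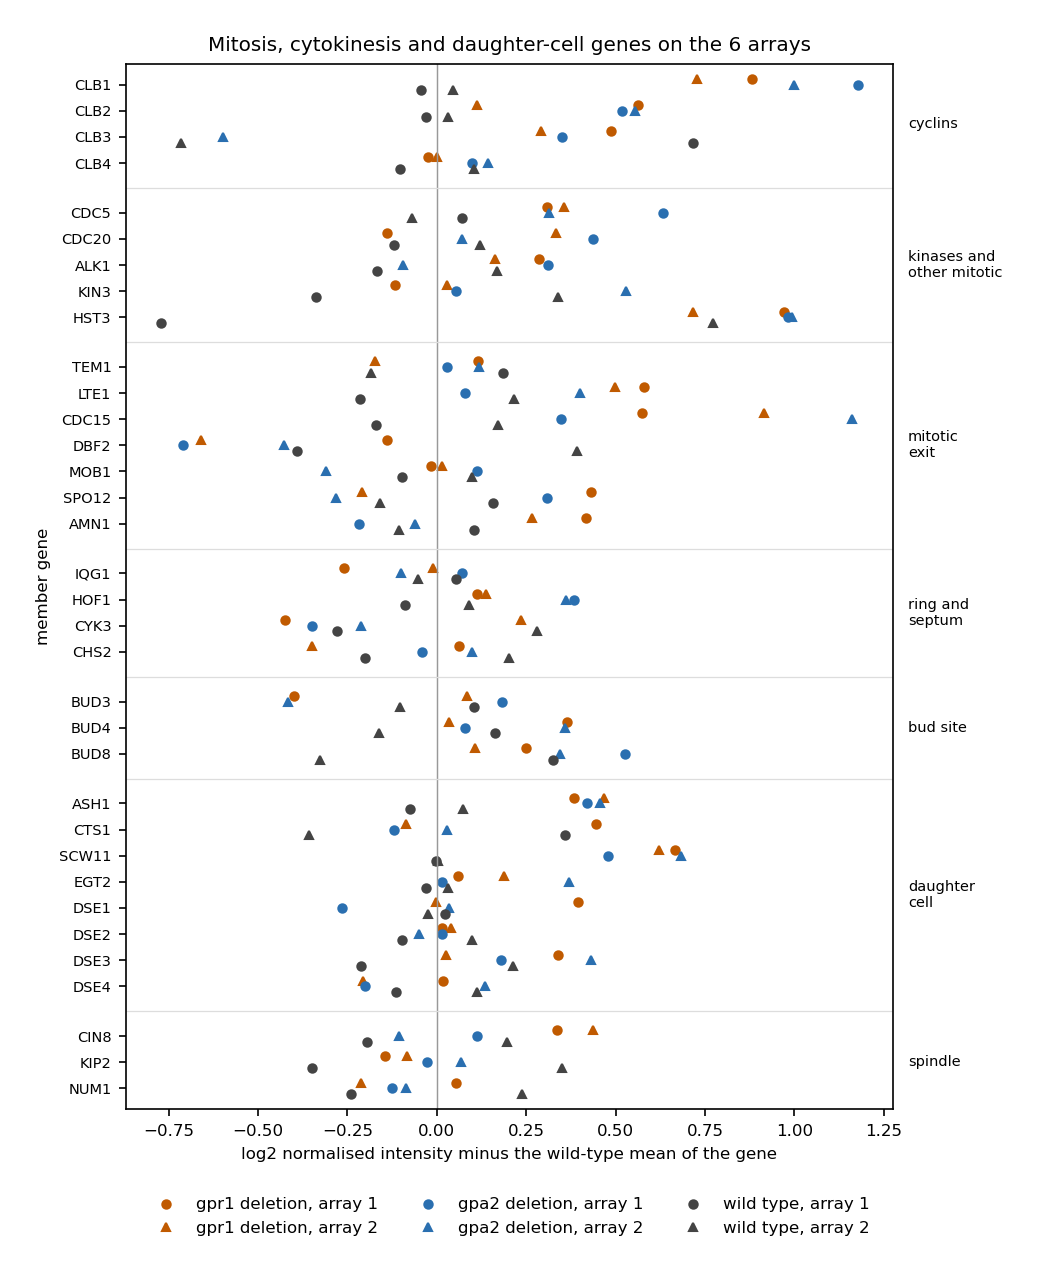
Log2 normalised intensity of the 34 tested members on each of the 6 arrays, with the wild-type mean of the gene set to 0. Genes run down the page by role, colours mark the groups and symbols the array number. CLB1 and SCW11 have all 4 deletion arrays above both wild-type arrays, while the wild-type arrays of CLB3 and HST3 lie 1.43 and 1.54 apart.

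The fit also bounded the size of these changes. The 95% interval of the change lay within a 2-fold difference either way (1 on the log2 scale) for 26 of 34 members in the gpr1 deletion and for 25 in the gpa2 deletion. The same held for 61.2% and 55.9% of all tested probe sets. Between the deletions it held for 29 of 34, against 68% of all, and for both deletions together for 27 of 34, against 69.4%. The standard error of a member's change against wild type had a median of 0.276 and ran from 0.18 for DSE2 to 0.495 for HST3. In 23 of 34 members the gap between the 2 wild-type arrays was larger than the change in the gpr1 deletion, and in 24 it was larger than that in the gpa2 deletion. This count was not made over all probe sets, where the wild-type gap was wide as well. Its median was 0.381 over all tested probe sets and 0.32 in the members. Members varied over the 6 arrays by a median range of 0.633, against 0.766 for all tested probe sets. DSE2, a daughter-cell glucanase gene, had the narrowest range, at 0.197.

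**Figure D2:**
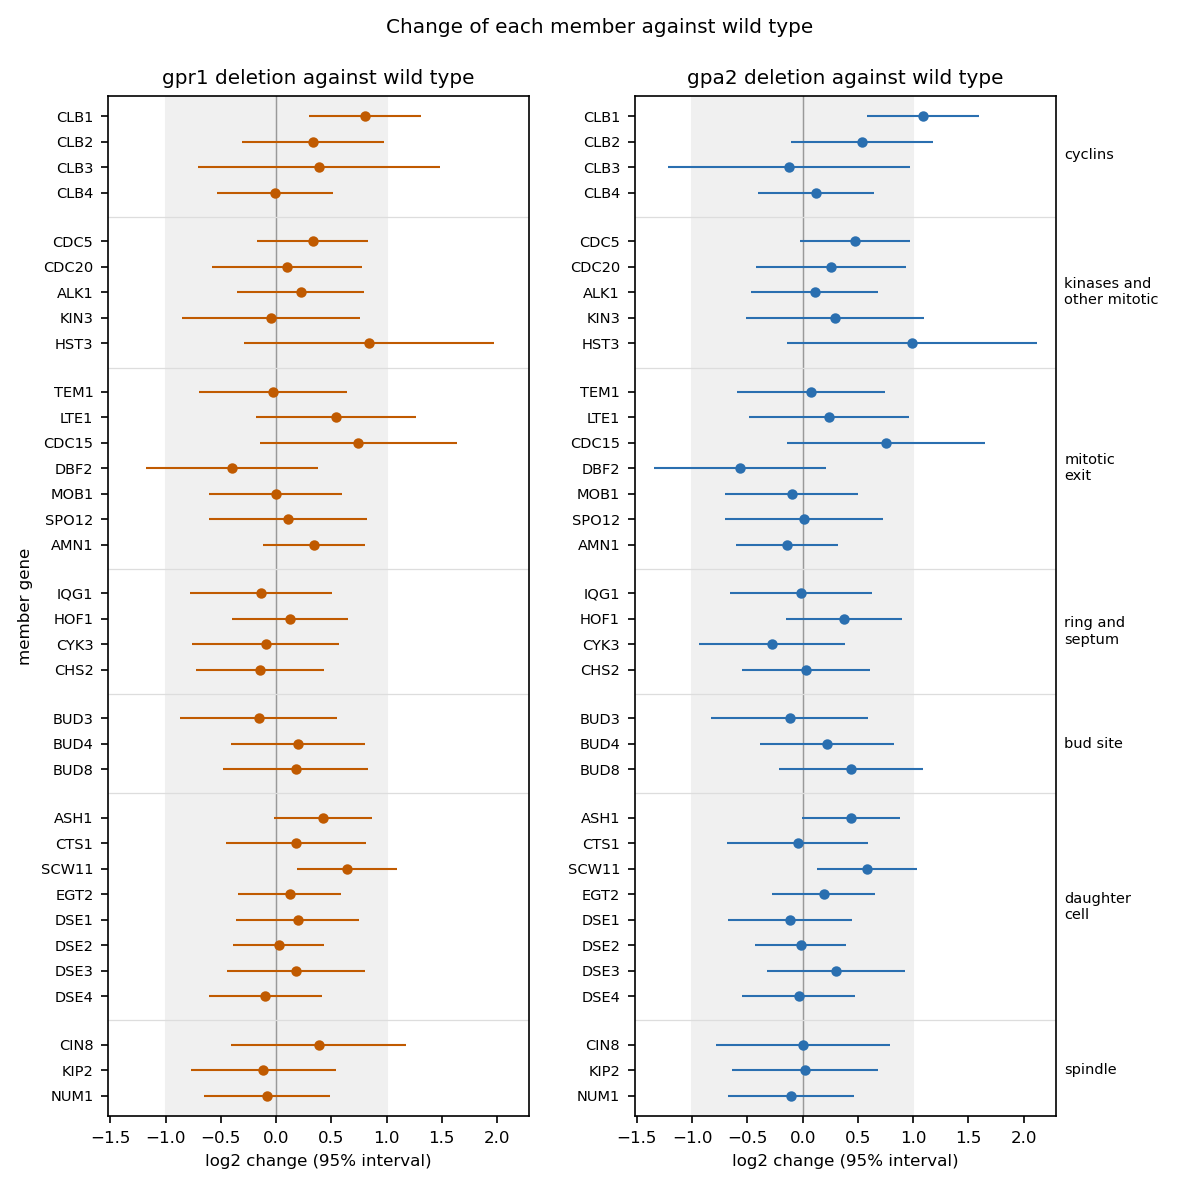
Log2 change of each tested member in the gpr1 deletion (left) and the gpa2 deletion (right) against wild type, with its 95% interval from the limma fit (2 arrays per group). The grey band marks changes of less than 2-fold. Only CLB1 and SCW11 have intervals clear of 0 in each panel, and neither passed after adjustment.

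Among the B-type cyclins, the CLB1 signal stood above wild type in both deletions without passing the test. CLB1 and its close relative CLB2 encode the main mitotic cyclins, and CLB3 and CLB4 encode cyclins that act earlier, in spindle assembly. CLB1 read 9.72 and 9.57 on gpr1 arrays, 10.02 and 9.84 on gpa2 arrays and 8.79 and 8.88 on wild-type arrays. All 4 deletion arrays lay above both wild-type arrays, and arrays of a group lay within 0.18 of each other. The change was 1.09 ± 0.22 in the gpa2 deletion (SE, with 2 arrays in each group; adjusted p = 0.0817 by limma), a 2.13-fold difference with a 95% interval of 0.58 to 1.59 on the log2 scale. In the gpr1 deletion it was 0.80 ± 0.22 (adjusted p = 0.385), or 1.75-fold with an interval of 1.23 to 2.48. Taken over both deletions, which use the same wild-type arrays, it was 0.95 ± 0.19 (adjusted p = 0.0812).

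CLB1 does not separate on the deposited scale, where array brightness differs. The deposited intensities were 1223.1 and 554.3 on gpr1 arrays, 608.7 and 596.8 on gpa2 arrays and 687.1 and 484.5 on wild-type arrays, and these overlap. As a multiple of each array's median they were 2.33 and 2.09 in the gpr1 deletion and 2.70 and 2.51 in the gpa2 deletion, against 1.22 and 1.30 in wild type. The difference of CLB1 is thus relative to the other transcripts of the same array. On the values as deposited its change was 0.51 with gpr1 deleted and 0.06 with gpa2 deleted, while all probe sets had median changes of -0.32 and -1.02. Without wild-type array 2, the one with the high SPT15 ratio, the normalised change of CLB1 was 0.84 with gpr1 deleted and 1.12 with gpa2 deleted.

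The other cyclins had smaller or less even differences. CLB2 read 8.41 and 7.96 on gpr1 arrays, 8.37 and 8.40 on gpa2 arrays and 7.82 and 7.88 on wild-type arrays. All 4 deletion arrays were again the higher ones, with changes of 0.34 ± 0.28 (adjusted p = 0.934) and 0.54 ± 0.28 (adjusted p = 0.508) by limma. CLB4 ranged only from 8.87 to 9.12 over the 6 arrays. CLB3 read 9.05 and 8.85 on gpr1 arrays, 8.91 and 7.96 on gpa2 arrays and 9.28 and 7.85 on wild-type arrays, so that its wild-type arrays spanned both deletions. RNA of a whole culture cannot separate a larger share of cells in mitosis from more RNA in each such cell, and this holds for every gene below.

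In the group of mitotic kinases and related genes, 0 of 5 passed in any comparison. CDC5, the polo kinase of mitosis, read 10.27 and 10.32 on gpr1 arrays, 10.60 and 10.28 on gpa2 arrays and 10.03 and 9.89 on wild-type arrays. All deletion arrays were higher, with changes of 0.33 ± 0.22 and 0.47 ± 0.22 in the gpr1 and gpa2 deletions (limma adjusted p = 0.902 and 0.461). HST3, a histone deacetylase of the sirtuin family, had the least certain values. It read 7.68 and 7.42 on gpr1 arrays, 7.69 and 7.70 on gpa2 arrays and 5.93 and 7.48 on wild-type arrays. Wild-type array 1 alone was low, and the changes of 0.84 ± 0.50 and 0.99 ± 0.50 were smaller than the gap of 1.54 between the wild-type arrays. Without that array the change of HST3 in the gpr1 deletion was 0.08. CDC20, the activator of the anaphase promoting complex, ALK1, a haspin-like kinase, and KIN3, a NIMA-related kinase, had changes between -0.04 and 0.29. KIN3 read 7.49 and 7.64 on gpr1 arrays, against 7.66 and 8.14 on the gpa2 arrays, which do not overlap, while wild type spanned 7.27 to 7.95.

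**Figure D3:**
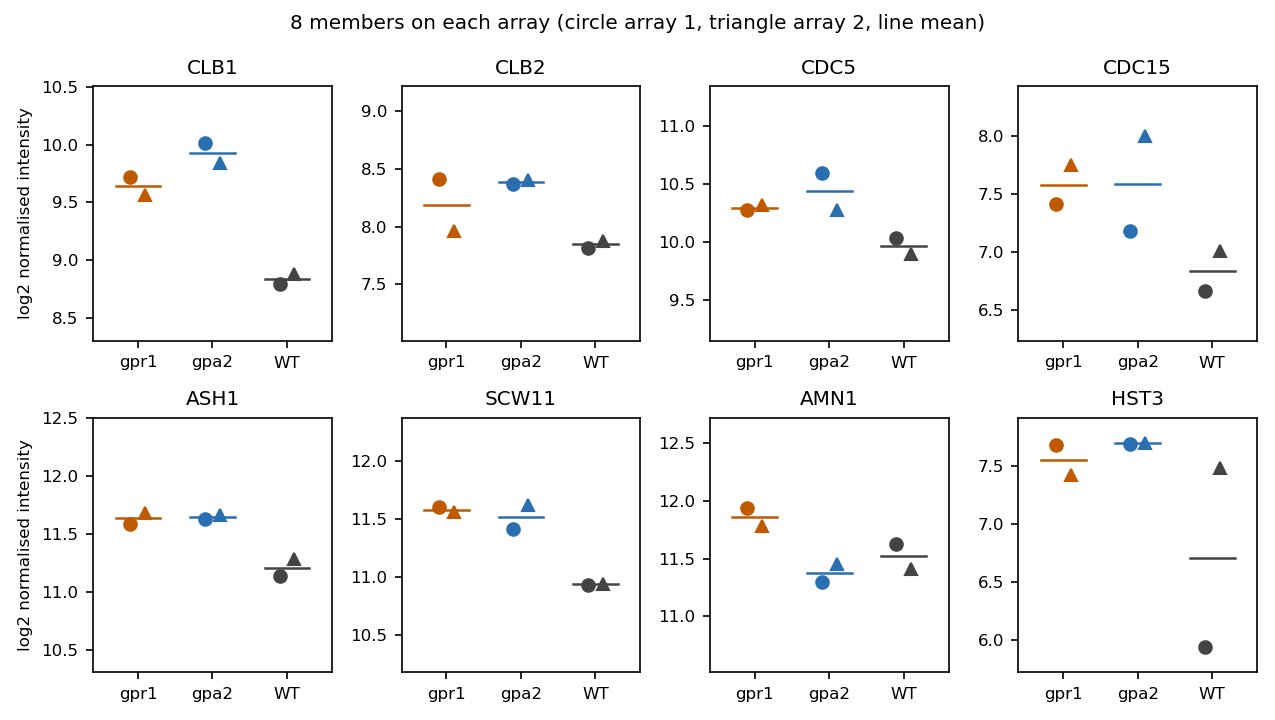
Log2 normalised intensity of 8 members in the gpr1 deletion, the gpa2 deletion and wild type (WT), with circles for array 1, triangles for array 2 and lines for the mean; every panel spans 2.2 log2 units. In 6 of the 8 panels (CLB1, CLB2, CDC5, CDC15, ASH1 and SCW11) all deletion arrays lie above both wild-type arrays, AMN1 is higher in the gpr1 deletion, and HST3 has 1 low wild-type array.

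The mitotic exit network gave no shared direction. CDC15, the kinase between the GTPase Tem1 and the kinase Dbf2, read 7.41 and 7.75 on gpr1 arrays, 7.18 and 8.0 on gpa2 arrays and 6.67 and 7.01 on wild-type arrays. The deletions lay above wild type on all arrays, yet the gpa2 arrays were 0.82 apart, and the changes of 0.74 ± 0.39 and 0.75 ± 0.39 did not pass (limma adjusted p = 0.841 and 0.504). DBF2, the kinase that Cdc15 acts on, was lower in both deletions on average. It read 8.61 and 8.09 on gpr1 arrays, 8.04 and 8.32 on gpa2 arrays and 8.36 and 9.15 on wild-type arrays, with changes of -0.40 ± 0.34 and -0.57 ± 0.34 (adjusted p = 0.937 and 0.560). It was the only member with both gpa2 arrays below both wild-type arrays. MOB1, the partner of Dbf2 in 1 kinase complex, had changes of 0.00 and -0.10, TEM1 of -0.03 and 0.07, and SPO12, which promotes early release of Cdc14, of 0.11 and 0.01. LTE1, a bud protein that promotes mitotic exit, had changes of 0.54 ± 0.32 with gpr1 deleted and 0.24 ± 0.32 with gpa2 deleted. CDC15 and KIN3 are direct chromosome neighbours in the gene order of the R64 assembly, and their changes in the gpr1 deletion were 0.74 and -0.04.

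AMN1 gave the smallest p among members in the comparison of the deletions. It encodes an antagonist of mitotic exit that is made in daughter cells. AMN1 read 11.93 and 11.78 on gpr1 arrays, against 11.30 and 11.46 on the gpa2 arrays, and wild type, at 11.62 and 11.41, overlapped the gpa2 deletion and lay below the gpr1 deletion. The difference of gpr1 minus gpa2 was 0.48 ± 0.20 (SE, n = 2 arrays per group; unadjusted p = 0.0426 by limma's moderated test across all probe sets, adjusted p = 0.99969), a 1.40-fold difference with a 95% interval of 1.01 to 1.92. The unadjusted p rose above 0.05 when any single deletion array was left out. The difference was then 0.41 or 0.56 without gpr1 array 1 or 2, and 0.40 or 0.56 without gpa2 array 1 or 2. Over the other settings that kept both arrays of each group, the unadjusted p (limma) ran from 0.0153 without the filter on dim probe sets to 0.0683 without the variance trend. It was 0.0535 with median centring. CLB1 differed by -0.28 ± 0.22 between the deletions, with an interval of -0.79 to 0.22, and DSE1 by 0.31 ± 0.25. The smallest adjusted p of any member here was 0.99969.

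Genes of the contractile ring and the septum lay close to wild type. HOF1, an F-BAR protein of the ring, read 8.84 and 8.87 on gpr1 arrays, 9.11 and 9.09 on gpa2 arrays and 8.64 and 8.82 on wild-type arrays. The groups do not overlap, but the steps were small, at 0.13 ± 0.23 with gpr1 deleted and 0.37 ± 0.23 with gpa2 deleted (limma adjusted p = 0.989 and 0.576). CHS2, the chitin synthase of the primary septum, read 9.84 and 9.43 on gpr1 arrays, 9.74 and 9.88 on gpa2 arrays and 9.58 and 9.98 on wild-type arrays. Its groups overlap in every comparison, and its changes were -0.14 ± 0.25 and 0.03 ± 0.25. IQG1, the IQGAP scaffold of the ring, had changes of -0.14 and -0.02, and CYK3, an activator of septum formation, of -0.09 and -0.28. MYO1, the myosin of the ring, has 8 single-gene probe sets and all were too dim to test. The one with the highest mean normalised log2 value gave deposited intensities of 78.0 and 23.4 on gpr1 arrays, 22.5 and 21.2 on gpa2 arrays and 79.1 and 51.8 on wild-type arrays.

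Of the 3 bud site landmarks, 0 passed in any comparison. BUD8, which marks the pole opposite the birth site, read 8.76 and 8.62 on gpr1 arrays, 9.04 and 8.85 on gpa2 arrays and 8.84 and 8.18 on wild-type arrays. Its change was 0.44 ± 0.29 in the gpa2 deletion (limma adjusted p = 0.593) and 0.18 ± 0.29 in the gpr1 deletion, and the gpr1 and wild-type arrays overlap. BUD4, an anchor of the axial landmark, read 8.98 and 8.65 on gpr1 arrays, 8.69 and 8.97 on gpa2 arrays and 8.77 and 8.45 on wild-type arrays. The changes were 0.20 ± 0.27 and 0.22 ± 0.27. Its 6 single-gene probe sets disagree: one of the 3 tested gave 0.69 and -0.08 in the gpr1 and gpa2 deletions, another gave 0.29 and 0.31, and the other 3 were dim. BUD3, another axial landmark, had -0.16 and -0.12, and its second probe set -0.04 and 0.04.

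Of the 8 daughter-cell and separation genes, SCW11 and ASH1 lay above wild type on every deletion array, and the other 6 gave no such split in both deletions. SCW11 encodes a cell wall protein related to glucanases. It read 11.60 and 11.56 on gpr1 arrays, 11.41 and 11.62 on gpa2 arrays and 10.93 and 10.94 on wild-type arrays. The changes were 0.64 ± 0.20 in the gpr1 deletion (limma adjusted p = 0.460), or 1.56-fold with a 95% interval of 1.14 to 2.13, and 0.58 ± 0.20 in the gpa2 deletion (adjusted p = 0.315), with an interval of 1.09- to 2.04-fold. ASH1, which encodes a repressor of mating type switching that collects in daughter nuclei, read 11.59 and 11.68 on gpr1 arrays, 11.63 and 11.66 on gpa2 arrays and 11.13 and 11.28 on wild-type arrays. The 4 deletion arrays lay within 0.09 of each other and above wild type by 0.43 ± 0.19 and 0.44 ± 0.19 (adjusted p = 0.775 and 0.438). On the values as deposited the change of SCW11 was 0.26 with gpr1 deleted and -0.50 with gpa2 deleted, and that of ASH1 was 0.05 and -0.65, so the direction of both genes in the gpa2 deletion holds only relative to the rest of the array.

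The remaining daughter-cell genes were closer to wild type. CTS1, the chitinase that cuts the septum, read 14.23 and 13.70 on gpr1 arrays, 13.66 and 13.81 on gpa2 arrays and 14.14 and 13.42 on wild-type arrays. Its wild-type arrays were 0.72 apart and spanned those of the gpa2 deletion. DSE1, a daughter-cell gene, read 9.84 and 9.44 on gpr1 arrays, 9.18 and 9.48 on gpa2 arrays and 9.47 and 9.42 on wild-type arrays. These overlap in every comparison. DSE2, DSE3, DSE4 and EGT2, which like CTS1 are known as daughter-cell or early G1 genes, had changes from -0.10 to 0.18 in the gpr1 deletion and from -0.03 to 0.30 in the gpa2 deletion. DSE2 read 13.73 and 13.75 on gpr1 arrays, 13.73 and 13.66 on gpa2 arrays and 13.62 and 13.81 on wild-type arrays, and its 95% interval was 0.77- to 1.35-fold in the gpr1 deletion and 0.74- to 1.31-fold in the gpa2 deletion.

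For the spindle motors, CIN8, a kinesin that slides spindle microtubules apart, read 7.43 and 7.53 on gpr1 arrays, 7.20 and 6.99 on gpa2 arrays and 6.90 and 7.29 on wild-type arrays. The gpr1 arrays were the highest of the 6, by 0.39 ± 0.35 over wild type and 0.38 ± 0.35 over the gpa2 deletion (limma adjusted p = 0.961 and 0.99969). KIP1, the related kinesin, was too dim to test, with deposited intensities of 108.8 and 70.2 on gpr1 arrays, 35.6 and 47.7 on gpa2 arrays and 116.6 and 42.8 on wild-type arrays. KIP2, a kinesin of cytoplasmic microtubules, had changes of -0.12 and 0.02. NUM1, the cortical anchor of dynein, read 9.60 and 9.34 on gpr1 arrays, 9.42 and 9.46 on gpa2 arrays and 9.31 and 9.79 on wild-type arrays, and wild type spanned both deletions. NUM1 has 8 single-gene probe sets, of which 3 were tested, with changes from -0.12 to -0.03 in the gpr1 and from -0.35 to 0.05 in the gpa2 deletion.

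Taking the members as a set, small differences leaned upward against wild type. Both arrays of the gpr1 deletion lay above both wild-type arrays for 11 of 34 members (32.4%), against 16.1% of all tested probe sets, and below them for 0, against 16.3%. In the gpa2 deletion 9 members lay above (26.5%, against 19% of all) and 1, DBF2, below (2.94%, against 20.8%). The 2 comparisons share their wild-type arrays. With both deletions together, 7 members had all 4 deletion arrays above both wild-type arrays (20.6%, against 10.3% of all) and 0 below (11% of all). Between the deletions, 3 of 34 members were higher in the gpr1 deletion (8.82%, against 15% of all) and 7 lower (20.6%, against 15.9%). The members were chosen with earlier results known, so no test over the set was made. On the values as deposited, where whole arrays differ in brightness, these counts follow the arrays: 0 members lay above wild type in either deletion, against 1.22% of all probe sets with gpr1 deleted and 0.676% with gpa2 deleted. Below wild type lay 1 of 34 and 29 of 34, against 15% and 82.4% of all. The members' median there was -0.13 and -0.86, beside -0.32 and -1.02 for all probe sets.

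**Figure D4:**
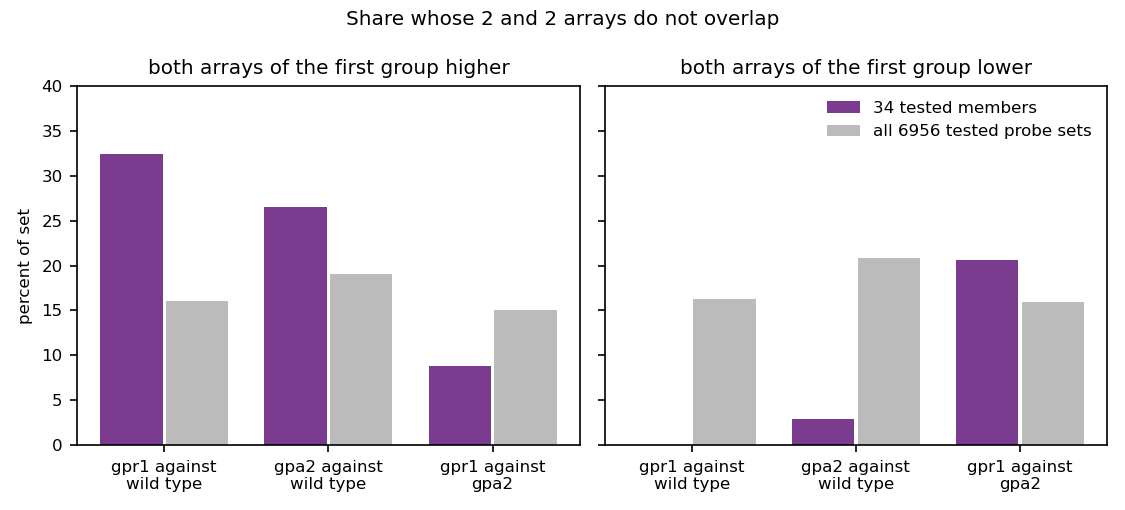
Percent of the 34 tested members (purple) and of all 6956 tested probe sets (grey) for which both arrays of the first group lie above (left) or below (right) both arrays of the second, on the normalised scale. Of the members, 32.4% lie above with gpr1 deleted and 26.5% with gpa2 deleted, against wild type, and 0 and 2.94% lie below.

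The median change of the members was 0.15 with gpr1 deleted and 0.09 with gpa2 deleted, with 22 of 34 above 0 in each (64.7%, against 49.9% and 47.9% of all probe sets). For both deletions together 25 of 34 were above 0 (73.5%, against 48.4% of all), and between the deletions 14 of 34 (41.2%, against 52.1%). By role, the median in the gpr1 deletion was 0.36 for the cyclins, 0.22 for the mitotic kinases and related genes, 0.11 for mitotic exit, -0.11 for the ring and septum, 0.18 for bud site, 0.18 for daughter-cell genes and -0.08 for spindle motors. In the gpa2 deletion the same medians were 0.33, 0.29, 0.01, 0.01, 0.22, 0.09 and 0.00 in that order. Single arrays weighed on the medians of all members. The gpr1 median was 0.10 and 0.27 without gpr1 array 1 or 2, and 0.08 and 0.19 without wild-type array 1 or 2. The gpa2 median was 0.20 without wild-type array 2. With the filter on dim probe sets raised to the 40th percentile, 29 members remained. Their median was 0.12 with gpr1 deleted and 0.03 with gpa2 deleted, beside 0 and -0.02 for all probe sets. Replicate gaps of the members were wider in wild type, with a median of 0.32, than in either deletion, with 0.211 in each, and over all tested probe sets the medians were 0.247 in the gpr1 deletion, 0.278 in the gpa2 deletion and 0.381 in wild type.

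Further genes of the same pathways, 88 in 9 lists, held no call either. Of these 80 were tested, 7 were dim, and 1 was not analysed here. None of the 80 passed in any comparison (limma, against the 0.23% and 0.776% of all probe sets given above). At an unadjusted p under 0.05, 1 was higher and 1 lower in the gpr1 deletion, and 4 were higher and 1 lower in the gpa2 deletion. Of all probe sets, 3.62% were higher and 3.02% lower at that level with gpr1 deleted, and 6.1% and 5.35% with gpa2 deleted. The median change of the 80 genes was 0.04 in each deletion. The genes with the smallest p in the gpr1 and gpa2 deletions were FKH1 (-0.20) and SWI5 (0.39) among mitotic transcription factors, and KIC1 (-0.26) and SOG2 (-0.40) in the RAM network, a kinase pathway of cell separation and polarity. NUD1, the scaffold of the mitotic exit network, had 0.52 and 0.74 in the gpr1 and gpa2 deletions, and CDC27 of the anaphase promoting complex had 0.51 and 0.57. In the spindle checkpoint MAD1 had -1.39 ± 0.76 in the gpr1 and MAD2 0.24 in the gpa2 deletion, and KAR3, a minus-end kinesin, had 0.52 and 0.43. MAD1 read 7.30 and 4.73 on gpr1 arrays, 7.22 and 6.40 on gpa2 arrays and 7.29 and 7.52 on wild-type arrays. Its change in the gpr1 deletion thus rests on gpr1 array 2, and both gpa2 arrays also lay below both wild-type arrays.

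RAX2, a bud site protein that helps keep Bud8 at the poles, had the largest upward change of these genes in the gpr1 deletion. It read 9.84 and 9.78 on gpr1 arrays, 9.57 and 9.81 on gpa2 arrays and 9.16 and 8.93 on wild-type arrays. The changes were 0.77 ± 0.23 and 0.65 ± 0.23 (limma adjusted p = 0.449 and 0.332). KCC4, a septin-associated kinase, read lower on its brightest probe set, at -0.73 ± 0.29 in each deletion (adjusted p = 0.708 and 0.388). Its other 2 probe sets gave 0.10 and 0.52 in the gpr1 and 0.29 and 0.23 in the gpa2 deletion, so the direction of KCC4 rests on 1 probe set.

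All 7 further genes of early G1 lay above 0 in both deletions, and none passed. Of all probe sets, 49.9% lay above 0 with gpr1 deleted and 47.9% with gpa2 deleted. Both comparisons use the same wild-type arrays, and the list was chosen with earlier results of these data known. The median of the 7 genes was 0.27 with gpr1 deleted and 0.42 with gpa2 deleted. SIC1, the inhibitor of the B-type cyclin kinase, read 10.01 and 10.07 on gpr1 arrays, 10.31 and 10.32 on gpa2 arrays and 9.58 and 9.72 on wild-type arrays. The 4 deletion arrays were the higher ones, with changes of 0.39 ± 0.21 and 0.66 ± 0.21 (limma adjusted p = 0.841 and 0.281). PRY3, a cell wall protein of daughter cells, had 0.55 and 0.47. SWI5, which encodes a transcription factor of the M to G1 transition, had -0.03 and 0.39.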

How the data were processed

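The files hold 1 deposited intensity per probe set on a linear scale for each of 6 arrays. How the authors summarised probes to intensities, and any scaling of arrays, were not given in the sources used here. Of 9335 probe sets, 60 controls were left out. Because array medians differed by up to 1.32 on the log2 scale, the deposited intensities were quantile normalised, floored at the pooled 10th percentile (8.94) and taken to log2. Probe sets whose mean lay under the 25th percentile (2319) were left out, and 6956 were tested. All 6 arrays entered 1 fit in limma 3.58.1 (R 4.3.3; lmFit, contrasts, eBayes with trend; 3 residual degrees of freedom), with Benjamini-Hochberg adjustment over all tested probe sets and a threshold of 0.05. With 2 arrays per group, the number of arrays limits the precision. Gene names came from the platform annotation and gene order from RefSeq R64. No 2 arrays held identical values. The script was tested on simulated data.

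The members and gene lists were chosen with earlier results of these data known. Members given with per-array values were those with the smallest p of their role in a comparison, plus any past the threshold, or with arrays apart from wild type and a log2 change of 1 or more. Per-array values of CLB2, CLB3, DBF2, ASH1, CTS1, DSE2, the dim MYO1 and KIP1, and the non-members MAD1, RAX2 and SIC1 fall outside that rule. They were chosen after their values were seen. Alternatives changed the scaling, floor, filter, variance trend, samples fitted, block, probe set choice, threshold and replicates.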

Additional observations from a re-analysis of the deposited data

How the results depend on the processing

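On intensities as deposited the members' median change was -0.13 in the gpr1 deletion, -0.86 in the gpa2 deletion, 0.65 between the deletions and -0.5 for both deletions, beside -0.32, -1.02, 0.70 and -0.67 for all probe sets. The sign there differed from the normalised one in 12 of 34 members in the gpr1 deletion, 21 in the gpa2 deletion and 20 between the deletions. Among the members with the smallest p of their role these were CDC5 (-0.55), CDC15 (-0.21), HOF1 (-0.63), BUD8 (-0.55) and SCW11 (-0.5) in the gpa2 deletion, BUD4 (-0.09) in the gpr1 deletion, and CLB1 (0.45), KIN3 (0.33), HOF1 (0.47) and BUD8 (0.44) between the deletions. All probe sets shift there with array brightness. Leaving out 1 array gave medians of 0.08 to 0.27 in the gpr1 deletion, 0.07 to 0.2 in the gpa2 deletion, -0.07 to 0.03 between the deletions (0.03 without gpr1 array 2) and 0.1 to 0.15 for both. CHS2 in the gpr1 deletion ran from -0.35 to 0.06, at 0.06 without gpr1 array 2 and also 0.06 without wild-type array 2, and NUM1 in the gpa2 deletion from -0.35 to 0.13, at 0.13 without wild-type array 2. The cause was not tested.

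Array numbers are shared between groups, but nothing in the labels pairs the arrays. Differences of array 1 minus array 2 correlated at 0.203 to 0.404 between groups, across all tested probe sets. With the replicate block 1 member, CLB1, passed in the gpa2 deletion (adjusted p = 0.0374, limma) and 1 for both deletions (0.0375), and 0 in the other comparisons. At a threshold of 0.1, 1 member (CLB1) passed in the same comparisons without the block (adjusted p = 0.0817 and 0.0812, limma). The share of all probe sets at that threshold is not given here. Over all probe sets the block gave 15 higher and 18 lower in the gpr1 deletion, against 6 and 10 without it, and 72 and 51 in the gpa2 deletion, against 33 and 21. For both deletions together it gave 77 higher and 54 lower, against 55 in either direction without it. Fitting only the groups compared gave no value for both deletions together.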
